A study of Mus musculus with 2 samples.

Results

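Amino acid and peptide transporters were compared between GFP+ and GFP- epithelial cells, sorted from intestinal organoids of mice with a chromogranin A reporter. The genes were taken by name: every row of both deposited tables whose symbol starts with Slc1a, Slc3a, Slc6a, Slc7a, Slc15a, Slc36a, Slc38a or Slc43a and a number, without the serotonin transporter Slc6a4. This gave 68 of the 23793 rows in each table, in 8 families. They are 65 transporter genes and 3 genes with the suffix os: Slc6a19os and Slc36a1os, antisense RNAs in GENCODE M21, and Slc7a6os, a protein-coding neighbour of Slc7a6. The naming rule used no measured value.

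The cells of interest were the GFP+ cells of organoids from ChgA-GFP reporter mice, grown from small-intestinal crypts in a gel with epidermal growth factor, noggin and R-spondin. Its comparison was the GFP- cells left after the same sort, from the same reporter strain. About 1% of epithelial cells were GFP+, and chromogranin A is most abundant in serotonin-producing enterochromaffin cells. Each fraction was sequenced as 1 library from polyadenylated RNA after low-input amplification, and the number of animals or cultures behind a library is not given in the sources used here. With 1 library per fraction there is no replicate check, and no difference below has a p-value or an error between samples.

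Amino acids enter the epithelium mainly through carriers of the luminal brush border and leave it through exchangers and facilitated carriers of the basolateral face. Small peptides are taken up by a proton-coupled carrier and split inside the cell. Several exchangers are pairs, in which a light chain of the Slc7 family carries the substrate and a heavy chain of the Slc3 family brings it to the membrane. Enterochromaffin cells build serotonin from the amino acid tryptophan, which is carried by transporters for large neutral amino acids.

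Levels are given as FPKM, a fragment count divided by transcript length and library size, so levels of different genes can be set side by side per length. All 68 genes had the status OK in both libraries. The deposited lower bound was 0 for all 68 in both libraries, and the upper bound was a median of 2.33 times the FPKM where a gene reached 1 FPKM. The summed level of 8 enterochromaffin marker genes was 7097 FPKM in GFP+ cells, against 195 FPKM in GFP- cells, and all 8 were at least 4-fold higher in GFP+. *Chga* itself had no estimate in GFP+, where 5 rows were listed at 0 because their loci held too many fragments. Markers of other cell types were present in both libraries. The sums were 1135 FPKM in GFP+ cells, against 18442 FPKM in GFP- cells for 10 Paneth cell genes, and 1354 FPKM in GFP+ against 3165 FPKM in GFP- for 7 goblet cell genes. For 10 enterocyte genes they were 1805 FPKM in GFP+ cells, against 3782 FPKM in GFP- cells, for 6 tuft cell genes 5.38 FPKM in GFP+ against 17.8 FPKM in GFP-, and for 7 genes of proliferating and stem cells 297 FPKM in GFP+ against 1218 FPKM in GFP-. No marker list was at 0 in GFP+. Of single markers, *Gnat3* of tuft cells was listed at 0 in GFP+. The part of these other cells in the differences below was not tested. In such bulk libraries, fewer cells of a type and less RNA per cell cannot be told apart.

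Of the 68 genes, 34 reached 1 FPKM in at least 1 library and were compared by the log2 ratio of FPKM + 1, GFP+ over GFP-, a scale that understates the change of low genes. A difference of at least 2 on this scale (4-fold) was taken as the size rule. Only *Slc38a11* and *Slc6a19* passed it upwards, and no gene of the families was 4-fold lower. Among all 11868 genes tested, 7.09% were at least 4-fold higher and 4.59% at least 4-fold lower. For 34 genes, 2 and 0 calls are thus close to the background or below it. Of the 34, 21 had a difference above 0 and 13 one below 0. The share above 0 was 61.8%, and it was 46.2% over all genes tested. The median difference was 0.34 over the 34 genes and -0.12 over all genes tested. Of the 34, 5 reached 1 FPKM in GFP+ only (*Slc6a19os*, *Slc7a15*, *Slc36a1*, *Slc38a3* and *Slc38a9*) and 1 in GFP- only (*Slc1a3*). The filter thus fixed the sign of their difference.

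**Figure D1:**
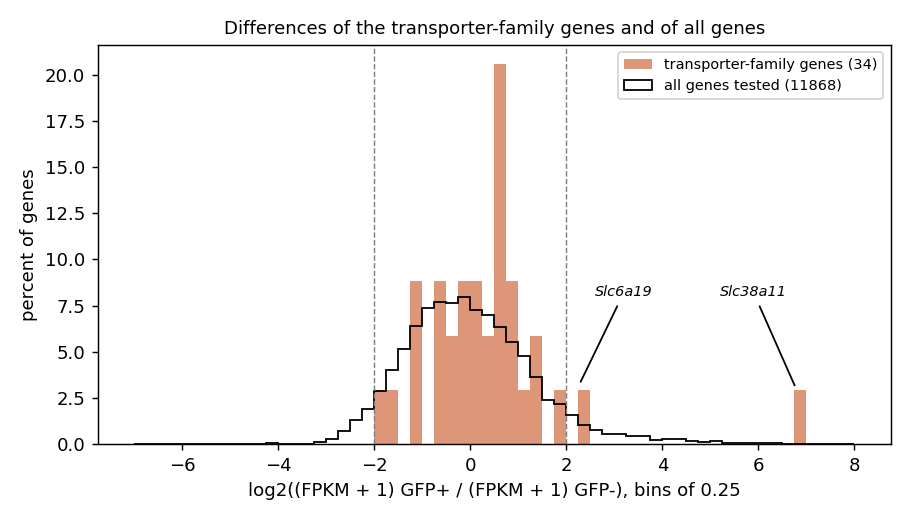
Distribution of the log2 ratio of FPKM + 1, GFP+ over GFP-, in bins of 0.25, as the percent of genes, for the 34 transporter-family genes tested (filled) and for all 11868 genes tested (line). Dashed lines mark 4-fold. *Slc38a11* stands apart at 6.79, *Slc6a19* lies at 2.27, and the other 32 genes lie between -1.87 and 1.94.

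Library scale bears on every small difference. The median log2 ratio was -0.50 over the 5563 genes with 10 FPKM or more in each library, whereas the 18 family genes above that level had a median of 0.23. Of these 18, 10 were above 0 and 8 below. The differences were also computed with that median set to 0 and with both libraries brought to one total. Under all 3 scalings 21 of the 34 genes stayed above 0 and 6 stayed below 0. The direction of the other 7 depended on the scaling, and they are named where they occur. Over all genes, 10.8% were at least 4-fold higher and 1.51% at least 4-fold lower with that median set to 0, and 13.4% and 1.2% at one total. The 34 genes then stood above 0 in 76.5% and 82.4% of cases. Over all genes these shares were 61.0% and 64.7%. There the filter of 1 FPKM was applied again after scaling, to 12157 and 12778 genes, whereas the 34 genes were kept as they were.

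**Figure D2:**
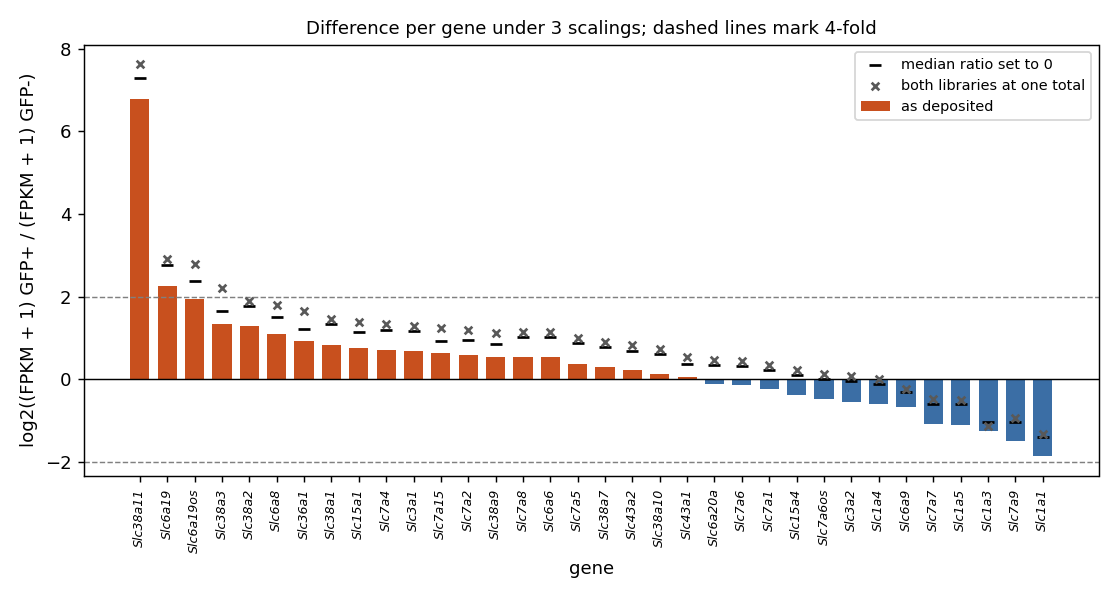
Difference per gene for the 34 genes tested, sorted from high to low, as the log2 ratio of FPKM + 1, GFP+ over GFP-. Bars show the values as deposited, short lines the values with the median ratio set to 0, crosses those with both libraries at one total, and dashed lines 4-fold. *Slc38a11* and *Slc6a19* pass 4-fold as deposited, and 7 bars below 0 have a cross above 0.

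The sodium-coupled neutral amino acid transporters of the Slc38 family held the largest difference. *Slc38a11*, a member whose substrates are little known (chromosome 2, 65316633 to 65364026, mm10, minus strand, the deposited locus), stood at 284 FPKM in GFP+ cells, against 1.59 FPKM in GFP- cells. The deposited upper bounds were 666 FPKM for GFP+ and 4.29 FPKM for GFP-. The ratio was 179 and the log2 difference 6.79, the 7th largest of the 11868 genes tested. Of the 8 enterochromaffin markers, whose ratios ran from 6.29 to 245, 1 had a larger ratio. The gene ranked first among the 68 in GFP+ and 25th in GFP-. It made up 26.4% of the summed FPKM of the 68 genes in GFP+ and 0.209% in GFP-. Without it, the other 67 genes summed to 793 FPKM in GFP+ cells, against 758 FPKM in GFP- cells, as deposited. As a share of the summed FPKM of all estimated genes, this was 0.195% in GFP+ and 0.121% in GFP-.

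The 6 other tested genes of this family had smaller differences, all above 0 under each of the 3 scalings. *Slc38a2*, the stress-inducible carrier of small neutral amino acids, was at 80.3 FPKM in GFP+ cells, against 32.6 FPKM in GFP- cells (difference 1.28). *Slc38a1*, its close relative with a similar substrate range, was at 38.1 FPKM in GFP+ cells, against 20.9 FPKM in GFP- cells (0.84). *Slc38a3*, which carries glutamine, was at 1.62 FPKM in GFP+ cells, against 0.0434 FPKM in GFP- cells, a ratio of 37.3 but a difference of 1.33 on the log2(FPKM + 1) scale. It passed the size rule with both libraries at one total, at 2.22. The value in GFP- stands for about 7.51 fragments. *Slc38a7*, a lysosomal glutamine carrier, was at 13.5 FPKM in GFP+ cells, against 10.7 FPKM in GFP- cells (0.30). *Slc38a9*, the lysosomal arginine sensor of the growth-control kinase mTOR, was at 1.56 FPKM in GFP+ cells, against 0.765 FPKM in GFP- cells (0.54). *Slc38a10* was at 44.1 FPKM in GFP+ cells, against 40.5 FPKM in GFP- cells (0.12). Without *Slc38a11* the family summed to 180 FPKM in GFP+ cells, against 106 FPKM in GFP- cells, a ratio of 1.70. Thus 7 of 11 genes were tested and 1 passed the size rule. *Slc38a4* was listed at 0 in both libraries, *Slc38a5* was at 0.0197 FPKM in GFP- cells and at 0 in GFP+, and *Slc38a6* and *Slc38a8* stayed below 1 FPKM.

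**Figure D3:**
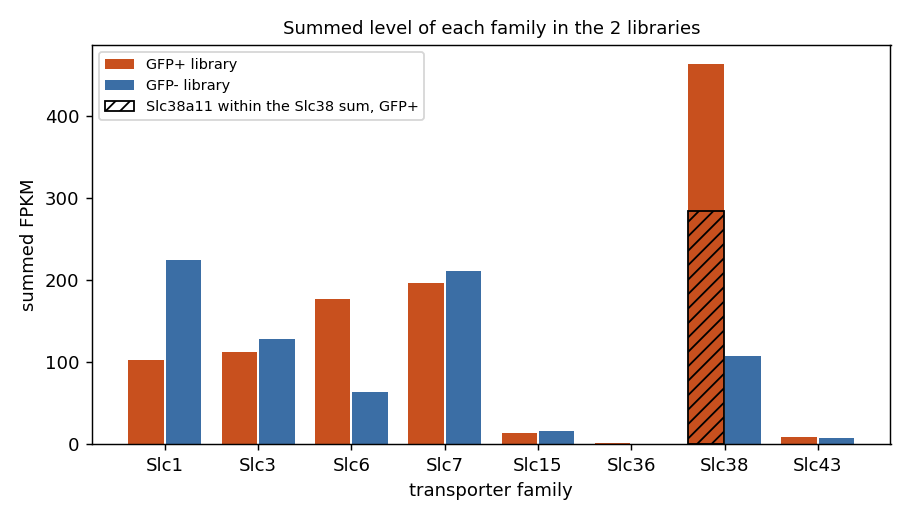
Summed FPKM of each transporter family in the GFP+ library (left bar of each pair) and the GFP- library (right bar). The Slc38 sum is 464 FPKM in GFP+, of which *Slc38a11* (hatched) is 284 FPKM, and 107 FPKM in GFP- cells. The Slc1 sum is 103 FPKM in GFP+ cells, against 225 FPKM in GFP- cells.

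The region before the start of transcription is shown for both genes that passed the size rule, *Slc38a11* and *Slc6a19*, and for *Slc1a1*, which had the lowest difference of the 34. The sequences are the 250 bases before the RefSeq start (GRCm38.p6, the assembly called mm10), read 5′ to 3′ on the gene's strand. The RefSeq start of *Slc6a19* lies inside the locus listed for that gene. Capitals mark CG dinucleotides, the sites of DNA methylation in mammals.
Slc38a11, chr2:65364027-65364276, minus strand: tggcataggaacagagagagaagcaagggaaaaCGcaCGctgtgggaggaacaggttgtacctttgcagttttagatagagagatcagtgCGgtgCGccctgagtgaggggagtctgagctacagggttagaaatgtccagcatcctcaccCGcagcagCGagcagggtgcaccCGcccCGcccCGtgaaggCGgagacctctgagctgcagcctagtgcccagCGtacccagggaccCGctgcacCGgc
Slc6a19, chr13:73692637-73692886, minus strand: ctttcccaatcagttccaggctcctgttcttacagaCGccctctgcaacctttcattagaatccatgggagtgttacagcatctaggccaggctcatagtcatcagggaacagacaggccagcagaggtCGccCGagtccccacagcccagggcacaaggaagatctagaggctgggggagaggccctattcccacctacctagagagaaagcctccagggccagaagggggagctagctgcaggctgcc
Slc1a1, chr19:28834885-28835134, plus strand: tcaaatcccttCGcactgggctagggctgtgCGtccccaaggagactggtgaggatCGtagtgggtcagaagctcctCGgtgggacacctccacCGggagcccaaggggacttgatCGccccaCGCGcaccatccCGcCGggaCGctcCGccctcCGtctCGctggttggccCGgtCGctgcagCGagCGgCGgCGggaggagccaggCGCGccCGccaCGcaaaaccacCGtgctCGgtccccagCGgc
The *Slc38a11* window holds 13 CG dinucleotides, that of *Slc6a19* 3 and that of *Slc1a1* 27, against a median of 6 over 32851 promoter windows. In 68.5% of all windows there were fewer CG than in that of *Slc38a11*, in 29.0% fewer than in that of *Slc6a19*, and in 91.4% fewer than in that of *Slc1a1*. Of the 68 genes, 49 had an entry in the promoter table, 26 of them tested.

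Short motifs were searched on both strands of these windows, as a description and not as evidence of binding. The GC box GGGCGG occurred at 2 places in the *Slc38a11* window, which overlap by their end bases, once in that of *Slc1a1* and not in that of *Slc6a19*. It is in 32.7% of all windows and in at least 1 window of 30 of the 49 genes. These 49 genes have 70 windows between them. The counts of genes given here are therefore in another unit than the percent of windows. They cannot be set against it, and an excess was not tested. CAGATG, a form of the E-box read by endocrine factors such as Neurod1, was in none of the 3 windows, in a window of 12 of the 49 genes and in 14.4% of all windows. TAATTA, read by homeodomain proteins such as Lmx1a, was in none of the 3, in 3 of the 49 genes (*Slc38a2*, *Slc7a8* and *Slc7a9*) and in 4.84% of all windows. TGATGNAA, the form of site read by the amino acid response factor Atf4, was in a window of *Slc7a11* and of *Slc7a7* and in 3.45% of all windows.

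Of the Slc6 family, 6 of 19 genes were tested. *Slc6a19*, the main sodium-driven carrier of neutral amino acids in the brush border, tryptophan included (listed locus chromosome 13, 73681157 to 73709856), was at 123 FPKM in GFP+ cells, against 24.8 FPKM in GFP- cells. The upper bounds were 299 FPKM for GFP+ and 53.9 FPKM for GFP-, the ratio 4.97 and the difference 2.27, which passed the size rule under all 3 scalings. The gene took 69.5% of the Slc6 sum in GFP+ and 39.0% in GFP-. *Slc6a19os*, an antisense RNA that shares the listed locus and overlaps the 5′ part of *Slc6a19* in GENCODE M21, was at 5.33 FPKM in GFP+ cells, against 0.645 FPKM in GFP- cells (1.94, just short of the rule). It passed the rule under both other scalings, at 2.38 and 2.79. Whether counting used strand is not given in the sources used here, so reads of the 2 genes cannot be told apart.

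*Slc6a19* needs a partner protein to reach the cell surface. Its renal partner *Tmem27* was listed at 0 in GFP+ and at 0.158 FPKM in GFP- cells. Enterocyte markers, which mark the cells best known for *Slc6a19*, were on both sides. *Sis* was at 183 FPKM in GFP+ cells, against 85.5 FPKM in GFP- cells, and *Lct* at 4.16 FPKM in GFP+ cells, against 1.21 FPKM in GFP- cells. *Fabp1* was at 470 FPKM in GFP+ cells, against 2157 FPKM in GFP- cells. Of the 10 enterocyte genes 5 had a difference above 0 and 5 below, and their part in the value of *Slc6a19* was not tested.

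The other tested Slc6 genes did not pass the size rule. *Slc6a6*, the taurine carrier, was at 31.6 FPKM in GFP+ cells, against 21.7 FPKM in GFP- cells (0.53). *Slc6a8*, the creatine carrier, was at 3.61 FPKM in GFP+ cells, against 1.15 FPKM in GFP- cells (1.10). *Slc6a20a*, which carries proline and other imino acids, was at 9.38 FPKM in GFP+ cells, against 10.3 FPKM in GFP- cells, with a difference of -0.12 that was above 0 under both other scalings. *Slc6a9*, a glycine carrier, was at 2.39 FPKM in GFP+ cells, against 4.45 FPKM in GFP- cells (-0.68, below 0 under all 3). It shares its listed locus with *Ccdc24*, on the other strand, at 7.08 FPKM in GFP+ cells, against 0.109 FPKM in GFP- cells. The carriers of neurotransmitters were low. *Slc6a2*, *Slc6a3*, *Slc6a5*, *Slc6a7*, *Slc6a11*, *Slc6a12* and *Slc6a13* all stayed below 1 FPKM, the highest being *Slc6a3*, the dopamine carrier, at 0.399 FPKM in GFP+ cells, against 0.335 FPKM in GFP- cells.

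The Slc1 family, which carries glutamate, aspartate and small neutral amino acids, was the only family with more than 1 gene tested in which every difference was below 0 as deposited. *Slc1a5*, the glutamine and neutral amino acid exchanger of dividing cells, was at 71.8 FPKM in GFP+ cells, against 156 FPKM in GFP- cells (-1.11). It was the most abundant of the 68 genes in GFP- and the fourth in GFP+. *Slc1a1*, the glutamate and cysteine carrier of the brush border, was at 7.96 FPKM in GFP+ cells, against 31.6 FPKM in GFP- cells (-1.87). *Slc1a3*, a glutamate carrier best known from glia, was at 0.642 FPKM in GFP+ cells, against 2.90 FPKM in GFP- cells (-1.25). It reached 1 FPKM in GFP- only, so the filter fixed its sign as deposited. *Slc1a4*, an exchanger of alanine, serine and cysteine, was at 22.2 FPKM in GFP+ cells, against 34.1 FPKM in GFP- cells (-0.60), with a difference just above 0 when both libraries were at one total. The family summed to 103 FPKM in GFP+ cells, against 225 FPKM in GFP- cells. None of its genes passed the size rule. With a pseudocount of 0.1, *Slc1a3* was 4-fold lower, at -2.02. Genes of proliferating and stem cells were also low in GFP+, with 4 of 7 markers at least 4-fold lower as deposited and 2 with the median ratio set to 0 or at one total. Their part in the Slc1 values was not tested.

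**Figure D4:**
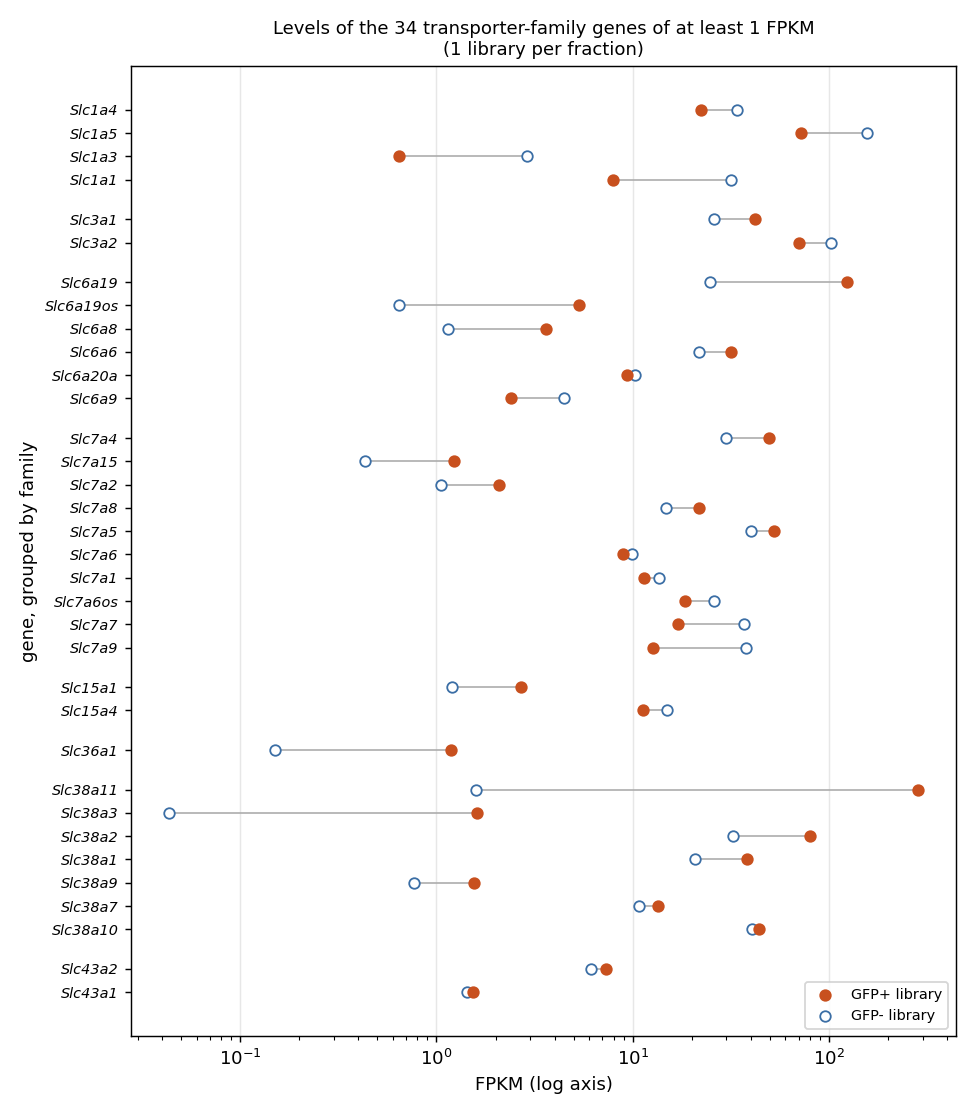
FPKM on a log axis of the 34 genes that reached 1 FPKM, grouped by family, in the GFP+ library (filled points) and the GFP- library (open points), with a line joining the values of a gene. The Slc38 points of GFP+ all lie to the right of their GFP- points, and the Slc1 points all to the left. For *Slc38a3*, *Slc38a9* and *Slc1a3*, which reached 1 FPKM in a single library, the filter fixed the side. *Slc38a11* has the longest line, from 284 FPKM in GFP+ to 1.59 FPKM in GFP- cells.

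None of the heavy chains and their light chains passed the size rule. *Slc3a2*, the heavy chain of most light chains, was at 70.0 FPKM in GFP+ cells, against 103 FPKM in GFP- cells, with a difference of -0.55 that was above 0 at one total. *Slc7a5*, its light chain for large neutral amino acids such as tryptophan and leucine, was at 52.5 FPKM in GFP+ cells, against 40.2 FPKM in GFP- cells (0.38). *Slc7a8*, a light chain of the basolateral face with similar substrates, was at 21.7 FPKM in GFP+ cells, against 14.7 FPKM in GFP- cells (0.53). *Slc7a6*, which exchanges cationic for neutral amino acids, was at 8.94 FPKM in GFP+ cells, against 9.91 FPKM in GFP- cells, with a difference of -0.13 that was above 0 under both other scalings. *Slc7a7*, the basolateral exchanger of the intestine for the same substrates, was at 16.9 FPKM in GFP+ cells, against 36.8 FPKM in GFP- cells (-1.08). It shares its listed locus with *Oxa1l*, at 14.3 FPKM in GFP+ cells, against 42.7 FPKM in GFP- cells. The 6 light chains of *Slc3a2* (*Slc7a5*, *Slc7a6*, *Slc7a7*, *Slc7a8*, *Slc7a10* and *Slc7a11*) summed to 101 FPKM in GFP+ cells, against 102 FPKM in GFP- cells. Set against *Slc3a2*, this was a ratio of 1.44 in GFP+ and 0.994 in GFP-.

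The pair that takes up cystine and cationic amino acids at the brush border, and whose loss causes cystinuria, had values on opposite sides. The light chain *Slc7a9* was at 12.8 FPKM in GFP+ cells, against 37.9 FPKM in GFP- cells (-1.50). The heavy chain *Slc3a1* was at 42.0 FPKM in GFP+ cells, against 26.0 FPKM in GFP- cells (0.67). Both kept their direction under all 3 scalings, and neither passed the size rule. The ratio of light to heavy chain was 0.304 in GFP+ and 1.46 in GFP-. *Slc3a1* shares its listed locus with *Prepl*, a peptidase-like gene on the other strand at 46.9 FPKM in GFP+ cells, against 15.7 FPKM in GFP- cells, so the value of *Slc3a1* is uncertain.

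Among the carriers of cationic amino acids, *Slc7a1*, the housekeeping arginine carrier, was at 11.4 FPKM in GFP+ cells, against 13.6 FPKM in GFP- cells, with a difference of -0.24 that was above 0 under both other scalings. *Slc7a2*, an arginine carrier of low affinity in some tissues, was at 2.10 FPKM in GFP+ cells, against 1.06 FPKM in GFP- cells (0.59). *Slc7a4*, a relative without an established substrate, was the most abundant of them, at 49.5 FPKM in GFP+ cells, against 30.0 FPKM in GFP- cells (0.71). Of the remaining Slc7 rows, *Slc7a15*, grouped here with the light chains and not with these carriers, was at 1.22 FPKM in GFP+ cells, against 0.433 FPKM in GFP- cells (0.63). *Slc7a11*, the cystine and glutamate exchanger, stayed below 1 FPKM, at 0.473 FPKM in GFP+ cells, against 0.629 FPKM in GFP- cells. *Slc7a6os* was at 18.4 FPKM in GFP+ cells, against 25.9 FPKM in GFP- cells (-0.47, above 0 under both other scalings). Of the 16 Slc7 rows 10 were tested, with 5 differences above 0 and 5 below, and none passed the size rule.

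The peptide carriers were low or close in both libraries. *Slc15a1*, the proton-coupled peptide carrier of the brush border, was at 2.70 FPKM in GFP+ cells, against 1.19 FPKM in GFP- cells (0.75). *Slc15a4*, which carries peptides and histidine out of lysosomes, was at 11.3 FPKM in GFP+ cells, against 14.9 FPKM in GFP- cells, with a difference of -0.37 that was above 0 under both other scalings. *Slc36a1*, a proton-coupled carrier of small amino acids in lysosomes and brush border, was at 1.19 FPKM in GFP+ cells, against 0.151 FPKM in GFP- cells (0.93, ratio 7.91). With a pseudocount of 0.1 it passed the size rule, at 2.37. *Slc36a4* had 0.884 FPKM in GFP+ cells, against 0.170 FPKM in GFP- cells, the highest level of the genes not tested. The facilitated carriers of large neutral amino acids *Slc43a2* and *Slc43a1* were at 7.34 and 1.53 FPKM in GFP+ cells, against 6.12 and 1.44 FPKM in GFP- cells. *Slc43a3* was listed at 0 in both.

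The order of the genes by level differed between the libraries. In GFP+ the highest were *Slc38a11* (284 FPKM), *Slc6a19* (123 FPKM), *Slc38a2* (80.3 FPKM), *Slc1a5* (71.8 FPKM) and *Slc3a2* (70.0 FPKM), which made up 58.4% of the summed level of the 68 genes. In GFP- the highest were *Slc1a5* (156 FPKM), *Slc3a2* (103 FPKM), *Slc38a10* (40.5 FPKM), *Slc7a5* (40.2 FPKM) and *Slc7a9* (37.9 FPKM), with 49.7%. Thus 2 of the highest 5 were shared. *Slc1a5* and *Slc38a2* stood at a ratio of 0.894 in GFP+ and of 4.79 in GFP-. Without replicates, neighbours in these orders cannot be told apart.

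Grouped by role, carriers of the same membrane did not share a direction. Of 10 genes of apical absorption 7 were tested, 4 above 0 and 3 below, with *Slc6a19* the single call. They summed to 200.1 FPKM in GFP+ cells, against 132 FPKM in GFP- cells. Without *Slc6a19* the sum was 77.0 FPKM in GFP+ cells, against 107 FPKM in GFP- cells, a ratio of 0.718 as deposited, 1.02 with the median ratio at 0 and 1.10 at one total. Of 9 genes of basolateral exit and exchange 8 were tested, 5 above 0 and 3 below, with sums of 160 FPKM in GFP+ cells, against 194 FPKM in GFP- cells and no call as deposited. Their median was 0.14 as deposited, 0.53 with the median ratio at 0 and 0.67 at one total. At one total only *Slc7a7* stayed below 0. Of 9 uptake genes that cells induce when amino acids are short 7 were tested, 2 above 0 and 5 below. Their median was -0.55 as deposited, and 0.07 at one total. Of 7 lysosomal and endosomal carriers 4 were tested, 3 above 0 and 1 below, with sums of 28.6 FPKM in GFP+ cells, against 26.7 FPKM in GFP- cells. The carriers of tryptophan given here, which are not a full list, lay on both sides. *Slc6a19* was higher in GFP+, *Slc7a5* and *Slc7a8* had differences of 0.38 and 0.53, and *Slc16a10*, a basolateral carrier of aromatic amino acids outside these families, was at 1.89 FPKM in GFP+ cells, against 3.48 FPKM in GFP- cells (-0.63).

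The other 34 genes stayed below 1 FPKM in both libraries. Some of them still had many fragments, such as *Slc7a11* with about 231 in GFP+ and 319 in GFP-. Both values were above 0 in 15 of them, 5 were listed at 0 in both libraries, 3 at 0 in GFP+ only and 11 at 0 in GFP- only. The 5 were *Slc6a18*, *Slc7a10*, *Slc36a1os*, *Slc38a4* and *Slc43a3*. In the lowest values the deposited upper bound over the FPKM takes a few fixed values. Rows with a ratio of 3.828 were read as 1 fragment, and those with the next ratio, 3.449, then came to a median of 1.99 fragments in GFP+ and 1.98 in GFP-. On this scale 1 FPKM and kilobase of transcript stands for about 52.9 fragments in GFP+ and 55.0 in GFP-. The 1.59 FPKM of *Slc38a11* in GFP- stands for about 140 fragments, well above the 3 fragments taken as the floor.

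For genes with up to 3 fragments in GFP-, ratios carry exact (Clopper-Pearson) 95% intervals, which cover counting error only. *Slc6a14*, a broad carrier of neutral and cationic amino acids, was at 0.873 FPKM in GFP+ cells, against 0.0149 FPKM (3 fragments) in GFP-, a ratio of 58.6 (19.7 to 287). *Slc7a14*, a lysosomal relative of the arginine carriers, was at 0.145 FPKM in GFP+ cells, against 0.00183 FPKM (1 fragment) in GFP-, a ratio of 79.0 (13.8 to 3160). *Slc38a8* was at 0.374 FPKM in GFP+ cells, against 0.0134 FPKM (2 fragments) in GFP-, a ratio of 28.0 (7.40 to 238). *Slc6a12*, a betaine and GABA carrier, and *Slc1a2*, a glutamate carrier of glia, were listed at 0 in GFP-. At 0.246 and 0.0899 FPKM in GFP+ they were at least 11.8-fold and 19.1-fold higher than 3 fragments in the GFP- library would give. These low genes were picked after their values were seen.

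Several of the genes sit beside relatives, and relatives that share a stretch of chromosome often had very different levels. On chromosome 13, *Slc6a18*, a renal relative whose listed end lies 3133 bases from *Slc6a19*, was listed at 0 in both libraries. *Slc12a7*, a potassium and chloride carrier on the other side of *Slc6a19*, was at 96.0 FPKM in GFP+ cells, against 18.5 FPKM in GFP- cells, a ratio of 5.19 beside the 4.97 of *Slc6a19*. On chromosome 15, *Slc38a1* and *Slc38a2* lie in a stretch of 128 kb, both with a difference above 0. Their relative *Slc38a4*, 295 kb from *Slc38a2*, was listed at 0. The next gene, the adhesion protein *Amigo2*, was at 954 FPKM in GFP+ cells, against 4.28 FPKM in GFP- cells. On chromosome 9, *Slc6a20a* was at 9.38 FPKM in GFP+ cells, against 10.3 FPKM in GFP- cells, whereas *Slc6a20b*, in the same 85.0 kb, was at 0.125 FPKM in GFP+ cells, against 0.0312 FPKM in GFP- cells. On chromosome 11, *Slc36a1* was at 1.19 FPKM in GFP+, and *Slc36a2* and *Slc36a3*, within 112 kb, at 0.0145 and 0.0105 FPKM.

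**Figure D5:**
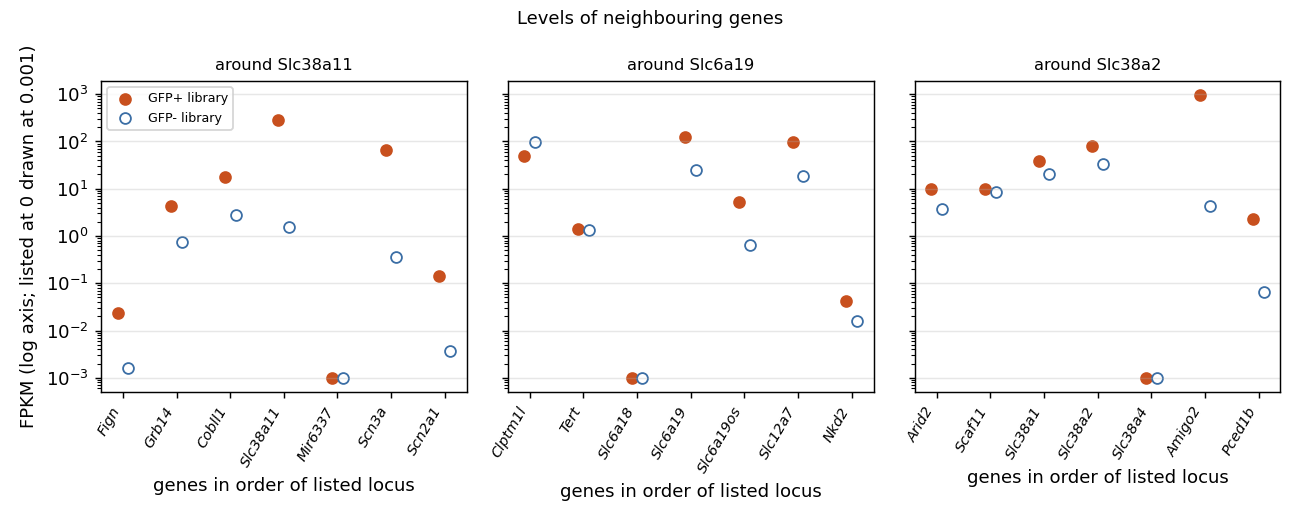
FPKM on a log axis of the genes listed next to *Slc38a11*, *Slc6a19* and *Slc38a2*, in the order of their listed loci, in the GFP+ library (filled) and the GFP- library (open), with genes listed at 0 drawn at 0.001. Around *Slc38a11*, *Cobll1* is at 17.7 FPKM in GFP+ cells, against 2.82 FPKM in GFP- cells, and *Scn3a* at 66.8 FPKM in GFP+ cells, against 0.357 FPKM in GFP- cells. *Mir6337*, *Slc6a18* and *Slc38a4* are at 0 in both libraries.

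Both nearest protein-coding neighbours of *Slc38a11* were at least 4-fold higher in GFP+. *Cobll1*, a relative of the actin regulator Cobl, 78.0 kb away, was at 17.7 FPKM in GFP+ cells, against 2.82 FPKM in GFP- cells (2.29). *Scn3a*, a voltage-gated sodium channel gene 93.1 kb away on the other side, was at 66.8 FPKM in GFP+ cells, against 0.357 FPKM in GFP- cells (5.64, ratio 187). *Grb14*, an adaptor of the insulin receptor, was at 4.27 FPKM in GFP+ cells, against 0.741 FPKM in GFP- cells (1.60). The next sodium channel gene, *Scn2a1*, was at 0.140 FPKM in GFP+ cells, against 0.00373 FPKM in GFP- cells. The gene listed before *Slc1a1* went the other way from it: *Glis3*, a zinc-finger factor, was at 26.0 FPKM in GFP+ cells, against 0.0947 FPKM in GFP- cells (4.63). These neighbours were described after their values were seen.

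Genes that work with the transporters were compared as lists. Of 10 partner proteins and peptidases of the brush border 9 were tested, 4 above 0 and 5 below, and none passed the size rule as deposited. *Dpp4*, a dipeptidyl peptidase that also cuts gut hormones, had the largest difference, at 111 FPKM in GFP+ cells, against 29.0 FPKM in GFP- cells (1.90), and passed it under both other scalings. *Ace* had 0.93, *Anpep* -0.78 and *Mep1b* -0.78, all peptidases. Of 10 other amino acid carriers 6 were tested, 3 above 0 and 3 below, with no call. The mitochondrial carriers *Slc25a13* (aspartate and glutamate), *Slc25a15* (ornithine) and *Slc25a22* (glutamate) had -1.89, -1.33 and 1.24, and *Ctns*, the lysosomal cystine carrier, 0.93. The vesicular carriers of glutamate and GABA, *Slc17a6*, *Slc17a7*, *Slc17a8* and *Slc32a1*, stayed at or below 0.0999 FPKM in both libraries.

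Of 15 genes of the amino acid response, which Atf4 turns on when amino acids are short, 14 were tested. None was 4-fold higher and 2 were 4-fold lower as deposited, 9 were above 0 and 5 below, and the median was 0.11. *Cebpb*, a transcription factor, was at 6.05 FPKM in GFP+ cells, against 33.2 FPKM in GFP- cells. *Phgdh*, the first enzyme of serine synthesis, was at 18.1 FPKM in GFP+ cells, against 83.6 FPKM in GFP- cells. Neither passed the rule under either other scaling, whereas *Sesn2*, which restrains mTOR and had 1.66, was then 4-fold higher. *Shmt2* and *Eif4ebp1* had -1.98 and -1.92. Of 21 genes of amino acid sensing at the lysosome 19 were tested and 1 was 4-fold higher. This was *Castor2*, listed as *Gatsl2*, a relative of the arginine sensor, at 7.03 FPKM in GFP+ cells, against 0.916 FPKM in GFP- cells (2.07). With a pseudocount of 5 the list had 0 such calls. *Flcn*, *Sesn2* and *Rptor* had 1.71, 1.66 and 1.12, and under both other scalings *Flcn* and *Sesn2* passed the rule. The median of this list was 0.12, with 10 genes above 0 and 9 below.

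All 14 enzymes of glutamine, glutamate and glutathione metabolism were tested, 7 above 0 and 7 below, with a median of 0.05. *Gpt*, alanine aminotransferase, was at 133 FPKM in GFP+ cells, against 23.5 FPKM in GFP- cells and was the single call (2.45). *Gad1* and *Gad2*, which make GABA from glutamate, were at 3.14 and 2.11 FPKM in GFP+ cells, against 0.0424 and 0.0586 FPKM in GFP- cells, with differences of 1.99 and 1.56. *Gad1* passed the rule under both other scalings and *Gad2* at one total. The vesicular GABA carrier *Slc32a1* was listed at 0 in both. *Gss*, glutathione synthetase, had -1.52.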

How the data were processed

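The authors deposited 1 table per library with FPKM values, an upper and a lower confidence bound and a status for each gene, per the file headers. The submitters' processing notes name TopHat2 0.7, Cufflinks, Cuffdiff and FastQC and the build mm10, with no order or role. No source used here gives the annotation, the scaling, the strand setting or how multi-mapping reads were counted. RNA was amplified with a low-input kit, per the labels, and no molecular identifiers are named, so fragments may not be independent molecules.

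Rows of the 2 tables were joined by identifier, symbol and locus. The 5 rows of status HIDATA in GFP+ were treated as not estimated, and FPKM was summed per symbol (23532 symbols). The 11868 symbols that reached 1 FPKM in either library were compared on log2 values of FPKM + 1, with a size rule of 2 (4-fold) and no test, since each group has 1 library. Lists are described by counts and medians. Family genes that reached 5 FPKM in either library, or past the size rule, were named by rule, and 10 tested genes between 1 and 5 FPKM were given with their values after these were seen. From the gene lists, up to 4 genes with the largest absolute difference were named, and others, among them *Tmem27*, *Slc16a10* and some markers, after their values were seen. The genes and lists were chosen with earlier results of these data known. Fragments per FPKM were estimated from the steps in the deposited bounds and from single-transcript genes of GENCODE M21 (160 in GFP+ and 190 in GFP-). For genes with no such step the longest GENCODE M21 transcript gave the length. Promoter windows are RefSeq's (GRCm38.p6). Listed starts, which count from 0, were shifted to count from 1. Alternatives were 2 other pseudocounts, 2 filters, 2 scalings, joined rows left out and 1 row per symbol. Some genes of these lists are not reported here. Python 3.11.15, pandas 2.3.3 and scipy 1.17.1 were used.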

Additional observations from a re-analysis of the deposited data

How the results depend on the processing

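With 1 library per fraction, nothing here measures variation between cultures or animals, and the deposited bounds overlap for all 68 genes, since every lower bound is 0. *Slc38a11* and *Slc6a19* passed the size rule under every alternative tried (pseudocounts of 0.1 and 5, no filter or one at 5 FPKM, the median ratio set to 0, one total, joined rows left out, 1 row per symbol). The 2 family genes at least 4-fold higher became 5 with a pseudocount of 0.1 (*Slc36a1*, *Slc38a3* and *Slc6a19os* added) and 4 at one total (*Slc38a3* and *Slc6a19os* added). The 0 genes 4-fold lower became 1 (*Slc1a3*) with a pseudocount of 0.1. The median of 0.34 over tested family genes was 0.19 with a pseudocount of 5, 0.17 with the filter at 5 FPKM and 0.014 with no filter. It was 0.87 once the median ratio was 0 and 1.00 at one total, where the filter was applied again, to 36 and 37 family genes. Over the same 34 genes these medians were 0.82 and 0.95. A larger pseudocount draws each difference towards 0. The filter sets which family genes are counted, 68 with none and 24 at 5 FPKM. The shifts under the 2 scalings follow from the scaling and from the genes counted. Over all genes the 841 higher calls became 1524 with a pseudocount of 0.1, 353 with 5, 1317 once the median ratio was 0 and 1717 at one total. The 545 lower calls became 809 with a pseudocount of 0.1, 315 with 5, 184 once the median ratio was 0 and 153 at one total. The median over all genes moved from -0.12 to 0.35 once the median ratio was 0 and to 0.50 at one total. Of the 34 differences, 5 changed sign once the median ratio was 0 and 7 at one total. No paired analysis was possible because each fraction has 1 library.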
